A study of Homo sapiens with 42 samples.

Results

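Chromatin accessible only in untreated RD cells was described as 2817 segments, out of 41364 segments that the 3 untreated RD samples had in common (6.81%). RD is a rhabdomyosarcoma line, a tumour with features of skeletal muscle precursors. A segment was a stretch of at least 100 bp, on chromosomes 1 to 22 or X, that lay under a deposited ATAC-seq interval in all 3 RD samples treated with DMSO. It counted as RD-only when no interval of the 18 DMSO samples of the other 6 lines overlapped it. The remaining 38547 RD segments overlapped an interval of at least 1 other line and are called shared. The samples treated with the inhibitor had no part in this choice, so they could be compared, whereas the values of the RD-only segments in DMSO are given as a description.

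ATAC-seq uses a transposase to insert adapters into DNA that nucleosomes leave open. The study held 42 samples in 14 groups of 3 biological replicates: the lines RD, MV411 (acute myeloid leukaemia), HCT116 (colorectal adenocarcinoma), DU4475 (invasive breast carcinoma), A375 (melanoma), 22RV1 (prostate adenocarcinoma) and 92-1 (uveal melanoma), each kept for 4 h with DMSO, the solvent control, or with FHT-1015. FHT-1015 inhibits both SMARCA4 and SMARCA2, and the labels name no dose. All samples are labelled wild type, and the title of the series speaks of inhibition of BAF complexes in cancers that depend on transcription factors. RD stands here for its tumour type as a single established line. The labels do not say whether replicates came from separate cultures, so tests measure only the spread between these samples.

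BAF complexes are chromatin remodellers that use ATP to slide or evict nucleosomes, and SMARCA4 and SMARCA2 are their alternative motors. They are known to keep enhancers open, which are the elements that differ most between cell types, while promoters of widely used genes are open in most cells. In muscle precursors, the basic helix-loop-helix factors MYOD1, MYF5 and MYOG bind E-boxes, and PAX7 marks the precursor state. Rhabdomyosarcoma cells are known to express part of this programme without completing differentiation.

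RD-only segments lay mostly away from promoters, but a few covered promoters of muscle genes. The sequences below describe those promoters only and not the other RD-only segments. Of 34961 RefSeq promoter windows (GRCh38.p14, 250 bases before to 50 after a start site), 36 were overlapped by an RD-only segment and 15662 by a shared one. The 36 windows were touched by 35 segments, because the facing starts of TMEM271 and LOC105374338 lay under the same one. Among them were TNNT2 (troponin T of heart and embryonic skeletal muscle), NEB (nebulin of the thin filament), PAX7, CAV3 (caveolin of the muscle membrane) and MEF2C (a partner of the myogenic factors), all from fixed lists of muscle genes. KLHL40 (a stabiliser of thin filament proteins), MRLN (a micropeptide that inhibits the calcium pump of the sarcoplasmic reticulum) and MUSTN1 were recognised as muscle genes after the values were seen. FAM240C had the strongest RD-only segment at any promoter. The 250 bases before the start are printed for 6 of these genes, from RefSeq and on the strand of the gene, to show which of them carry an E-box. Capitals mark the E-box CAGCTG and the related E-box CAGGTG, the latter on either strand.
TNNT2: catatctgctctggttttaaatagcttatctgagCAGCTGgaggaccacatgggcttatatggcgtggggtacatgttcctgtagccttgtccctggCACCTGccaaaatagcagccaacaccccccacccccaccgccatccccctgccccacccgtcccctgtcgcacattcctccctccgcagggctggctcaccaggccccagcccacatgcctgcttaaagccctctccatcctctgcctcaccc
CAV3: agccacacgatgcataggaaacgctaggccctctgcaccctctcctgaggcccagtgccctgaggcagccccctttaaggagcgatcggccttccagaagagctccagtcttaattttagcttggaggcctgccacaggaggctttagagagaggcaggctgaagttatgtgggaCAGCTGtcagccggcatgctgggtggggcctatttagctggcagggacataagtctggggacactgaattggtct
KLHL40: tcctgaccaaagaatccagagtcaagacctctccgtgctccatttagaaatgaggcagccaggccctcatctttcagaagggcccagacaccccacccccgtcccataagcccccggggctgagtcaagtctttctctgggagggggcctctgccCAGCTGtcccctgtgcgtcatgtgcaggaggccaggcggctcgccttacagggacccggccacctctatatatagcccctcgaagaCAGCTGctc
FAM240C: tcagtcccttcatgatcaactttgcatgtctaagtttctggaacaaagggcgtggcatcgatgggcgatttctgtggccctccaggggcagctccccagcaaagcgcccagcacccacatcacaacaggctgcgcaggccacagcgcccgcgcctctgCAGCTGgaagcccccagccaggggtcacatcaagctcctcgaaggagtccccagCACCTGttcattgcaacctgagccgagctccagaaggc
NEB: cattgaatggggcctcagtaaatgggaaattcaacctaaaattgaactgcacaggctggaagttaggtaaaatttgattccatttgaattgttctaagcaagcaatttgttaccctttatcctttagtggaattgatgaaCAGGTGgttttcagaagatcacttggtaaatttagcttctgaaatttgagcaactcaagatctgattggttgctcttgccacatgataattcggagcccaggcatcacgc
PAX7: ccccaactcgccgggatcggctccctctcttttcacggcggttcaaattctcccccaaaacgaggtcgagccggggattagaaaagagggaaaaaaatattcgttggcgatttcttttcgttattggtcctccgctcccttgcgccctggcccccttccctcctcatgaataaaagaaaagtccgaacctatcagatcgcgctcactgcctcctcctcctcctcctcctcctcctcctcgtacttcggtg
These stretches lie at chr1:201377681-201377930 on the minus strand (TNNT2), chr3:8733552-8733801 on the plus strand (CAV3), chr3:42685287-42685536 on the plus strand (KLHL40), chr2:241899141-241899390 on the minus strand (FAM240C), chr2:151734477-151734726 on the minus strand (NEB) and chr1:18630596-18630845 on the plus strand (PAX7).

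CAGCTG, searched on both strands of the 300 bp window, was in 18 of the 36 promoters with an RD-only segment (50%), against 17.95% of all 34961 promoters and 17.3% of those with a shared segment. This E-box is a palindrome and is among the matches of the looser pattern CANNTG, as is the related E-box. The looser pattern was in 86.1% of the 36 promoters and 68.7% of all promoters. The related CAGGTG was in 10 of the 36 (27.8%), against 20.6% of all. The letters TCANGTTTC, a core bound by sine oculis homeobox factors, were in 4 of the 36 (11.1%), against 1.03% of all, and TGANTCA, the AP-1 core, in 6 (16.7%), against 7.68%. GGAATG, bound by TEAD factors, was in 9 (25%), against 14.04%. The opposite order held for GGGCGGGG, the SP core of promoters rich in G and C, which was in 2 of the 36 (5.56%), against 22.8% of all and 40.4% of those with a shared segment. The patterns given here are part of a longer set that was searched, and not all of that set were raised. The core bound by MEF2 factors was in 1 of the 36 (2.78%), against 1.32% of all. A further E-box was in 2 (5.56%), against 7.27%, and another in 1 (2.78%), against 3.02%. These counts are small, and no test was made on them. A match says only that the letters are there. In the printed stretches the CAGCTG of TNNT2 began 216 bases before the start, that of CAV3 75 bases before, and those of KLHL40 95 and 9 bases before. Each of these, and the CAGGTG of NEB 110 bases before its start, lay inside the RD-only segment. The printed stretch of PAX7 held neither.

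The values of these promoters are −log10 p of the deposited peak at the segment and, where stated, its pileup, which is the number of reads stacked at the summit. The rule required a peak in each DMSO sample and not in the treated ones, so lower treated values at single segments, here and at the loci that follow, are partly fixed by the choice and test nothing. At TNNT2 the segment of 765 bp had −log10 p of 18.1, 24.6 and 15.1 in DMSO replicates 1, 2 and 3, with pileups of 39, 51 and 34. With FHT-1015 it was listed in replicate 3 only, at 7.02 and a pileup of 19. At NEB the −log10 p was 15.5, 14.3 and 18.3 in DMSO and 4.25, 3.21 and 11.1 with FHT-1015, so that the treated samples were all below the untreated ones. PAX7 showed the same order, with 14.6, 13.5 and 13.1 in DMSO and 3.15, 4.86 and 6.77 with FHT-1015. CAV3 went from 10.3, 10.8 and 6.58 in DMSO to 3.52 in replicate 2 alone. KLHL40 had 5.21, 9.01 and 6.97 in DMSO and no interval with FHT-1015. The promoter of MRLN, at 14.3, 12.2 and 12.97 in DMSO, was listed with FHT-1015 in replicate 3 only, at 6.61. MEF2C did not follow this order: it had weak peaks of 4.63, 6.55 and 4.47 in DMSO, and 5.04, 2.42 and 5.37 with FHT-1015, and the groups overlapped.

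**Figure D1:**
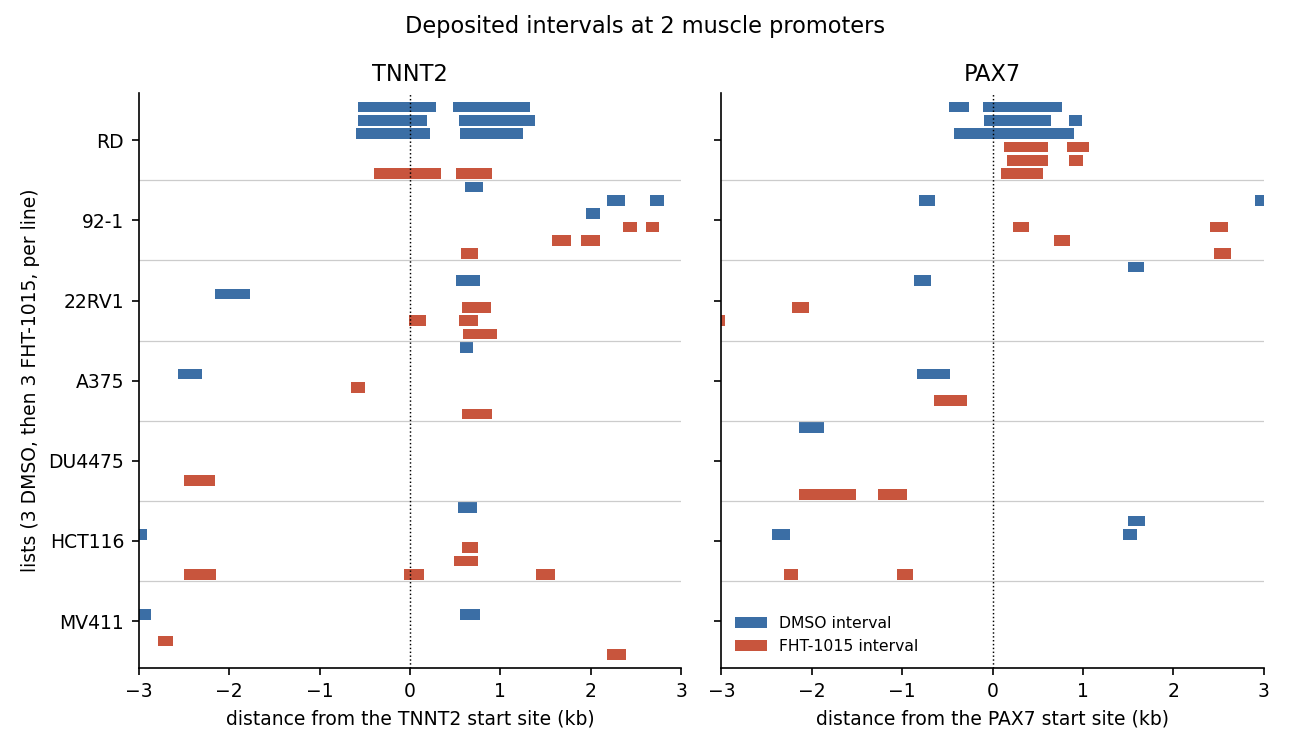
Deposited intervals around the start sites of TNNT2 and PAX7, with the distance from the start in kb on the horizontal axis (positive in the direction of transcription) and 1 row per sample, 3 DMSO (blue) and 3 FHT-1015 (red) for each of the 7 lines. RD has an interval at both starts in each DMSO sample, and with FHT-1015 in replicate 3 alone at the TNNT2 start and in all 3 replicates beside the PAX7 start, while the DMSO samples of the other lines show only intervals beside the RD-only segments.

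Across all 2817 segments the signal in DMSO was modest. The median width was 201 bp, against 470 bp for shared segments. The median −log10 p was 5.39, 5.58 and 4.99 in DMSO replicates 1, 2 and 3, and the median pileup was 8, 10 and 9 reads. At this depth a loss of a few reads can remove an interval from a list, so presence and absence are given beside the strength of the segment throughout. A value belongs to the peak whose summit lies in the segment where there is one, which held for 82.7%, 84.3% and 84.8% of the segments in the 3 DMSO lists, and otherwise to the strongest peak of the overlapping interval. The lowest −log10 p over the 3 lists had a median of 3.81, from 2.00 to 44.9. At the edge of the rule, 101 segments exceeded the limit of 100 bp by at most 9 bp, and 88 others failed by width alone, missing it by at most 10 bp. Another 3076 RD segments had an interval in exactly 1 of the 18 other DMSO lists, and 8834 had one in all 18.

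Most segments lay close to an interval of another line in DMSO, but no baseline of random positions was drawn. The DMSO lists of other lines are long and include weak peaks, with 349337 intervals in 92-1 replicate 1 alone. The distances therefore do not show that the segments were nearer to such intervals than other positions were. An interval of another line in DMSO lay within 500 bp of 1930 of them (68.5%) and within 1 kb of 87.1%, at a median distance of 263 bp. Only 94 (3.34%) lay within 1 kb of an end of a protein-coding gene, against 31.4% of shared segments. Segments open only in A375 (3.15%) and only in DU4475 (2.99%), the lines whose files have the same kind of peaks as RD, were as rarely at gene ends. The median distance to a start site was 36.1 kb, against 11.99 kb for shared segments, over those on chromosomes of the promoter table. Inside a protein-coding gene were 56.3% of RD-only and 57.8% of shared segments. Whether a position was exonic or intronic was not analysed here.

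Most segments stood alone. When segments with short gaps between them were joined, 86.9% had no other RD-only segment beside them, and 32 fell into 10 clusters of at least 3. The clusters with most segments held 4 each, at chr2:111299778-111313316 beside LOC124907867 and at chr2:205474786-205497066 inside PARD3B, which encodes a cell polarity protein. The 3 segments of a cluster inside MAN1A1 (chr6:119209977-119211371), a mannosidase of glycan processing, were in none of the FHT-1015 lists of RD. This held for 41.1% of all RD-only segments. The 3 inside TBX15 (chr1:118931969-118933713), a T-box factor of skeletal development, were all listed in FHT-1015 replicate 3 and in neither of the other two. The cluster beside TMEFF2 (chr2:191933140-191935558) had 1 of its 3 segments listed in each treated sample. These are the 3 shortest of the clusters with 3 segments. The longest of those, inside NEK7 (chr1:198278913-198295673), had all 3 listed in FHT-1015 replicates 1 and 3 and 1 in replicate 2. By chromosome, 406 segments lay on chromosome 2, which is 14.4% of RD-only segments against 10.2% of all RD segments. In A375 the matching shares of chromosome 2 were 7.33% and 7.69%, and in DU4475 10.8% and 8.73%. Copy number was not analysed here.

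Among the genes with most RD-only segments nearest to them were GAS1, a growth-arrest protein and hedgehog co-receptor, and PARD3B, with 7 each. ARPP21, AUTS2, CDH4, CNTNAP2, COL19A1, LOC107986375, SPATS2L, TCF4, TENM3, TMTC2 and ZNF521 had 6 each. In all, 1999 genes were nearest to at least 1 segment and 1484 of them to a single one, so the segments were spread over many loci. COL19A1, a collagen gene, kept 3 of its 6 segments in all 3 FHT-1015 lists. Of the 6 near CNTNAP2, an adhesion gene of neurons, 3 were in none of them. Over all RD-only segments, 9.80% were in all 3 of these lists and 41.1% in none. Single genes hold too few segments to be told apart from these shares.

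Of 4 lists of muscle genes, 3 had a much larger share of genes near an RD-only segment than all genes did, and 1 had nearly the same share. A segment belonged to a gene when it lay inside it or within 100 kb, and 22.8% of 19970 protein-coding genes had at least 1. The share was 14 of 25 for myogenic regulators (56%), 16 of 27 for sarcomere and contraction genes (59.3%) and 10 of 14 for genes of the myoblast surface and fusion (71.4%). It was 3 of 13 for genes of the neuromuscular junction and calcium release (23.1%), close to that of all genes. In the same order, the 4 lists had 28%, 22.2%, 35.7% and 30.8% of their genes near an A375-only segment, and 28%, 18.5%, 42.9% and 53.8% near a DU4475-only one. The RD share was thus above both others in the first 3 lists and below both in the list of neuromuscular junction and calcium release. For mesenchymal and growth signalling genes the RD share was 7 of 20 (35%), and DU4475 had the same 35%. None of 7 melanocyte and none of 7 prostate marker genes had an RD-only segment within 100 kb. The rule had dropped RD segments with a DMSO interval in the melanoma and prostate lines. Their absence at these few genes is therefore partly fixed by the choice and tests nothing, and the same holds for markers of the other lines. SPI1 was the 1 of 7 myeloid markers with one, and GRHL2 and LGR5 were the 2 of 12 epithelial and intestinal markers. No test was made on the lists, and neighbouring genes such as MYF5 and MYF6, or TNNI1 and TNNT2, counted the same segments. The 4 muscle lists together accounted for 66 segments, 2.34% of the 2817.

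**Figure D2:**
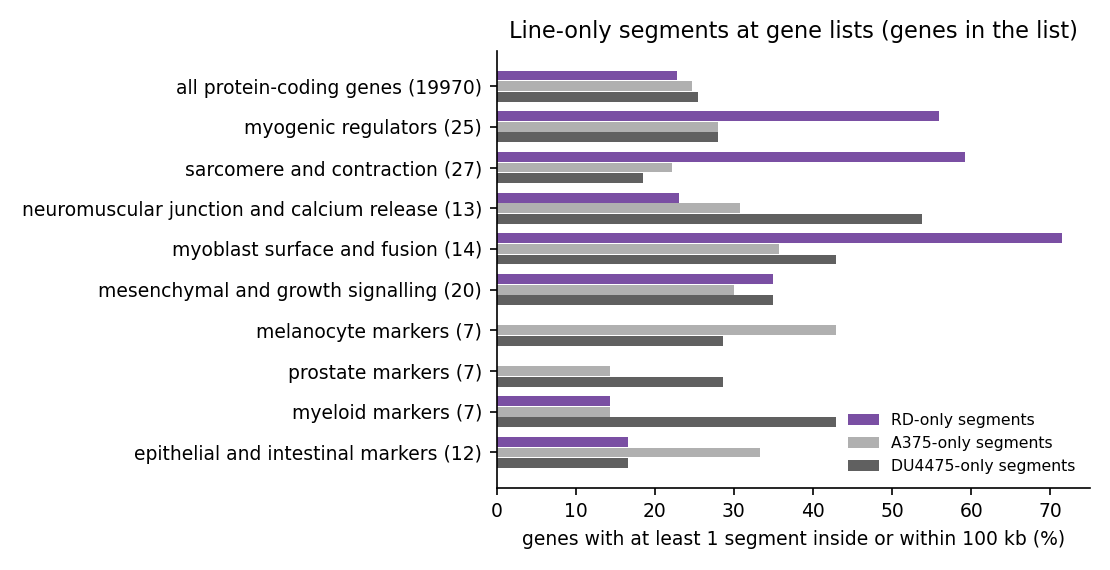
Percent of the genes of each list with at least 1 line-only segment inside or within 100 kb, for segments open only in RD (purple), A375 (light grey) and DU4475 (dark grey) in DMSO, with the number of genes in brackets. For RD, 56% of myogenic regulators, 59.3% of sarcomere genes and 71.4% of myoblast surface genes had one, against 22.8% of all protein-coding genes. Melanocyte and prostate markers had none, which is partly fixed by the rule, because it drops segments with a DMSO interval in the melanoma and prostate lines.

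Among the myogenic regulators, PAX7 had 4 segments, MYOG and PITX3 had 3 each and MYF5 had 2. MYOD1, the factor that can turn other cells into muscle, had 1, at chr11:17687888-17688571, outside genes and with its midpoint 31.3 kb from MYOD1. Its −log10 p was 17.1, 20.6 and 13.3 in DMSO and 4.27, 2.30 and 6.62 with FHT-1015. Pileups there were 30, 35 and 25 reads in DMSO and 10, 4 and 13 with FHT-1015. Near MYOG, which drives terminal differentiation, the strongest segment lay inside PPFIA4 at chr1:203051641-203052507. It had 25.8, 15.9 and 19.0 in DMSO, then 4.27 in FHT-1015 replicate 1, no interval in replicate 2 and 15.6 in replicate 3, which came close to the DMSO samples. The 2 other segments of that locus, inside TMEM183A and MYBPH, were in no FHT-1015 list. Near MYF5, an early determination factor, the segment at chr12:80729741-80729890 had 3.09, 4.67 and 8.64 in DMSO and 3.50 in FHT-1015 replicate 1 only. The other, inside PTPRQ at chr12:80679480-80679668, was listed with FHT-1015 in replicate 3 only. PITX3, a homeobox gene of muscle and lens, had a segment inside it with 12.8, 9.58 and 9.65 in DMSO, and neither it nor the 2 others of the locus was listed with FHT-1015. Apart from its promoter, PAX7 had segments of 4.15, 7.43 and 2.85 and of 6.26, 4.56 and 4.11 that were not listed after treatment, and a further one that was listed in replicate 1.

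At sarcomere genes, MYH3, NEB, TNNI1 and TNNT2 had 3 segments each. MYH3 encodes the embryonic myosin heavy chain, and its internal segment at chr17:10661401-10661828 had 7.88, 7.60 and 8.72 in DMSO and 4.15 in FHT-1015 replicate 3 alone. The other pair of the locus, shared with MYH1 and MYH2, was listed in 1 and in 2 of the treated samples. Between TNNT2 and TNNI1, the slow troponin I gene, a second segment had 16.7, 7.66 and 8.61 in DMSO and 5.54 in FHT-1015 replicate 3. Upstream of NEB, adjoining segments had 10.1, 12.8 and 10.4, and 4.63, 12.7 and 6.29, in DMSO, and both were listed in FHT-1015 replicate 3 only. MYL1, a myosin light chain gene, kept both of its segments in all 3 treated samples. The one inside MYL1 had 9.97, 5.75 and 9.57 in DMSO and 8.09, 4.39 and 6.31 with FHT-1015, so the groups overlapped.

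At surface genes, NCAM1, an adhesion molecule of myoblasts and other cells, had 3 segments. The strongest, at chr11:112878131-112878554, lay 82.9 kb outside the gene. It had 27.8, 22.9 and 19.3 in DMSO and 4.62, 4.52 and 4.83 with FHT-1015. CDON, a co-receptor that promotes myogenic differentiation, had a segment 60.8 kb outside the gene, at chr11:126124107-126124812. That segment had 25.7, 26.7 and 24.6 in DMSO and 4.25, 2.42 and 3.98 with FHT-1015. These 2 were present in each treated sample at far lower values than in any untreated one. CDH15, the cadherin of satellite cells, had a segment of 997 bp inside it, at chr16:89172824-89173820, with 10.4, 10.5 and 7.23 in DMSO. It was in no FHT-1015 list. Its pileups of 32, 33 and 27 reads in DMSO were above the median of all RD-only segments, but so was its background, at 8.04, 8.49 and 8.28 reads. Its fold over background was 3.65, 3.58 and 3.02, below the medians of 3.93, 3.81 and 3.66. Of the 66 segments at muscle loci, 28 (42.4%) were in none and 11 (16.7%) in all 3 of the FHT-1015 lists, against 41.1% and 9.80% of all RD-only segments, and 17.6% and 43.4% of all 41364 RD segments. The share in none was thus close to that of RD-only segments elsewhere. Their lowest −log10 p in DMSO had a median of 4.64, above the 3.81 of all RD-only segments.

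The strongest RD-only segments of the genome were mostly still listed after treatment. They were picked for their DMSO values and have no held-out DMSO value, so their treated values are given as a description. The strongest lay inside HS1BP3, at chr2:20622449-20623489, with −log10 p of 58.2, 44.9 and 51.1 in DMSO and 6.33, 6.74 and 10.7 with FHT-1015. Its pileups were 82, 76 and 77 reads in DMSO and 22, 15 and 25 with FHT-1015. A segment 96.1 kb from OTOS, at chr2:240236328-240237197, had 42.8, 77.2 and 43.4 in DMSO and 7.68, 3.68 and 19.7 with FHT-1015. The FAM240C promoter segment, at 26.7, 26.7 and 30.6 in DMSO, was listed with FHT-1015 at 2.75 in replicate 2 only. The others of the 8 strongest, at RWDD3, VSTM4, FAM110A, PGM1 and the CDON locus (inside LOC105369591), were listed in at least 2 treated samples. The strongest segments that no FHT-1015 sample listed lay inside CEP170B (14.6, 33.8 and 25.4 in DMSO, chr14:104881156-104882067), inside ABCC4, inside GNB4, beside C1orf87, and 34.8 kb from SOX11, a factor of embryonic progenitors (11.5 at the lowest in DMSO, chr2:5657318-5657924).

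With FHT-1015, 809 of the 2817 segments (28.7%) had an RD interval in replicate 1, 608 (21.6%) in replicate 2 and 1260 (44.7%) in replicate 3. For shared segments these shares were 63.4%, 56.4% and 74.2%. In none of the 3 treated samples were 1159 RD-only segments (41.1%), against 17.6% of all 41364 RD segments. In all 3 were 276 (9.80%), against 43.4% of all RD segments. The order of the treated samples was the same for both kinds of segment. Their deposited lists held 192175, 152849 and 204577 peaks, and those of the DMSO samples 242304, 209804 and 220367. The background of the peak caller, a stand-in for depth, was 1.65, 1.009 and 1.18 reads in the treated and 0.817, 1.11 and 1.19 in the untreated samples. The part of depth in these shares was not tested.

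Presence in DMSO was required by the rule, so the size of the loss was measured with segments chosen from 2 DMSO replicates and looked for in the third. RD-only segments chosen in this way (5157 to 5631 per choice) were found in the held-out DMSO sample at 55.2%, 49.4% and 49.6%, a mean of 51.4% ± 3.26 (SD, n = 3). With FHT-1015 they were found at 20.4%, 15.3% and 30.2%, a mean of 22.0% ± 7.55 (SD, n = 3). The groups did not overlap, and the difference of −29.4 percentage points had an exact two-sided permutation p of 0.1, which is the smallest that 3 against 3 samples can give. Without any 1 DMSO sample, segments rested on a single list and the difference was −4.53, −4.47 and −4.92 points on leaving out replicate 1, 2 and 3. Shared segments went from 78.1% ± 1.44 to 54.5% ± 7.97, a difference of −23.6 points, also with an exact permutation p of 0.1. As a percent of the held-out DMSO recovery, 42.7% of RD-only and 69.8% of shared segments were found with FHT-1015.

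RD-only segments are weaker and more distal than shared ones, so both were compared outside gene ends (over 1 kb away) and within bins of the lower −log10 p of the 2 choosing lists. From 5 to 10, held-out DMSO recovery was alike, 90.9% ± 1.52 for RD-only and 94.9% ± 1.73 for shared segments (SD, n = 3). In this bin the FHT-1015 samples recovered 34.3%, 26.3% and 55.9% of RD-only and 51.8%, 41.2% and 70.1% of shared segments. RD-only minus shared recovery was thus −17.5, −14.9 and −14.2 points in the 3 treated samples, where the DMSO difference was −3.92 points. At 10 or more, FHT-1015 recovery averaged 69.6% for RD-only and 86.9% for shared segments, and DMSO recovery was above 99% for both. RD-only was lower in 3 of 3 treated samples in each of the 4 bins, with an exact sign-flip p of 0.25 in each, the smallest that 3 values can give. Below 5, however, the DMSO samples differed as much, by −11.4 points from 2 to 3 and −9.53 points from 3 to 5, where the treated means were −8.85 and −11.0 points. These baselines were added after the data had been seen.

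**Figure D3:**
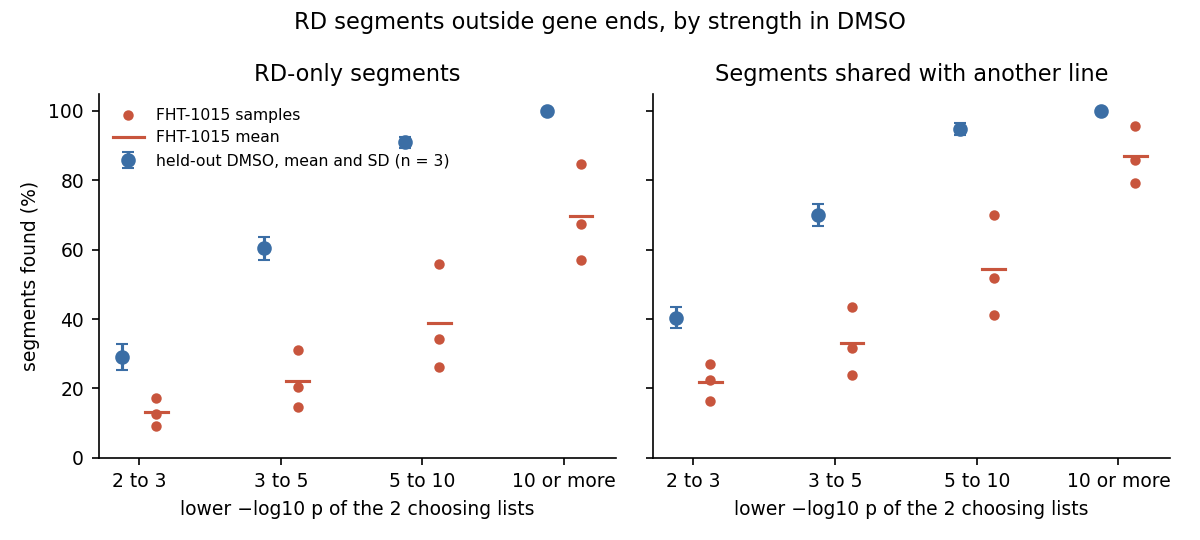
Percent of RD segments outside gene ends that were found in a sample, against the lower −log10 p of the 2 DMSO lists that chose them, for RD-only (left) and shared segments (right). Blue points are the mean of the 3 held-out DMSO samples with SD, red points the FHT-1015 samples and red bars their mean; from 5 to 10, RD-only segments go from 90.9% to 38.8% and shared ones from 94.9% to 54.4%.

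Within 1 bin of strength, recovery with FHT-1015 rose with the number of other lines that shared the site. Outside gene ends and with a lower −log10 p of 5 to 10, mean FHT-1015 recovery was 38.8% for RD-only segments. It was 42.9%, 46.0%, 49.2%, 54.8%, 59.4% and 73.3% for segments open in 1, 2, 3, 4, 5 and 6 other lines. Held-out DMSO recovery lay between 90.9% and 96.2% over the same classes. So near its ceiling, it cannot show that the classes were equally strong. Width and strength within the bin were not compared between the classes, and their part in this order was not tested. The order from 0 to 6 lines held in each of the 3 treated samples. RD-only segments stood at the low end of this series, and their nearest neighbours, open in 1 other line, were recovered 3.91, 4.40 and 3.75 points more often in the 3 samples. Shared segments at gene ends were found at 94.7% in held-out DMSO and at 86.3% with FHT-1015. The few RD-only segments at gene ends (153 to 158 per choice) went from 58.9% to 23.9%, much like those elsewhere, which went from 51.2% to 21.9%.

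**Figure D4:**
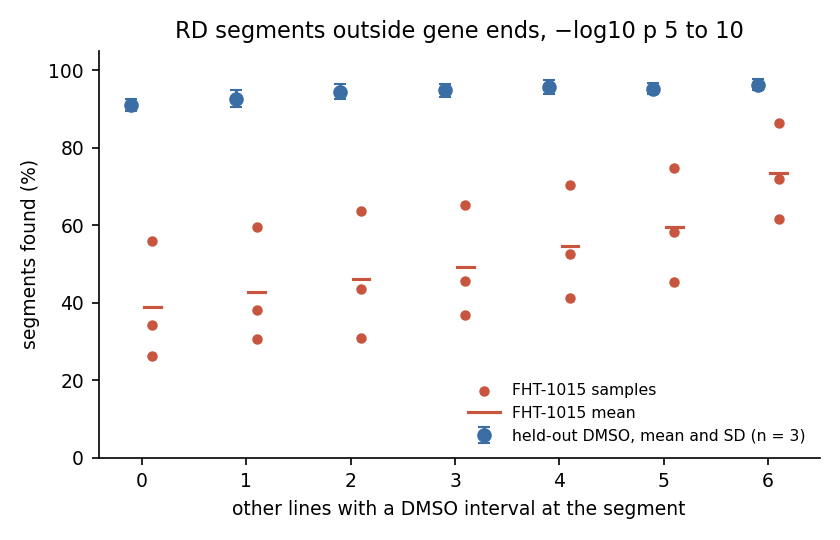
Percent of RD segments found, against the number of other lines with a DMSO interval at the segment, for segments outside gene ends with a lower −log10 p of 5 to 10 in the choosing lists. Held-out DMSO samples (blue, mean and SD) stay between 90.9% and 96.2%, while the mean of the FHT-1015 samples (red bars, with each sample as a point) goes from 38.8% at 0 other lines to 73.3% at 6.

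The share of RD-only segments in none of the treated samples was 57.0% for segments with a lowest −log10 p of 2 to 3, 43.0% from 3 to 5, 24.8% from 5 to 10 and 7.41% at 10 or more. Held-out DMSO samples showed a gradient with strength too, with recovery of 29.2%, 60.5%, 90.9% and 99.8% in these bins of the 2 choosing lists. FHT-1015 recovery as a percent of it was 44.9%, 36.4%, 42.6% and 69.7%. The share in none was 43.6% within 1 kb of a gene end and 41.1% elsewhere, 42.2% inside and 39.8% outside genes. Segments at least 500 bp from any interval of another line (38.9%) and nearer ones (42.2%) also differed little. These are values of the same 3 treated samples, and no test was made between the classes. Among the 276 segments listed in all 6 RD samples, the median fold over background was 5.53, 5.47 and 5.09 in DMSO and 3.37, 3.48 and 4.28 with FHT-1015. The mean fold was lower with FHT-1015 in 244 of the 276 (88.4%), against 90.5% of shared segments listed in all 6. In 111 of the 276 all 3 treated folds lay below all 3 untreated ones, and in 1 all 3 lay above.

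In FHT-1015 lists of other lines few RD-only segments were listed. The rule had excluded segments with a DMSO interval of these same lines, so low shares there are partly fixed by the choice. Each of the 18 lists held between 64 (2.27%, HCT116 replicate 1) and 274 (9.73%, 22RV1 replicate 1) of the 2817, and each of the 3 RD lists 608 or more. Of the shared RD segments, these 18 lists held between 27.5% (92-1 replicate 3) and 62.6% (A375 replicate 2). At least 1 of the 18 lists held 1506 segments (53.5%), but only 21 were in all 3 treated samples of another line. One of the 21 was the PPFIA4 segment of the MYOG locus, in 22RV1. Such repeated listing was most frequent in 22RV1, where the 3 lists held 9.73%, 6.53% and 8.95% of the segments. Those lists held 371713, 267505 and 323159 peaks, and the part of list length was not tested.

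Each line had segments of its own, which allowed RD to be placed among them. Recovery with FHT-1015, as a percent of held-out DMSO recovery, was 42.7% for RD-only segments. It was 28.1% for segments open only in 92-1, 37.6% in 22RV1, 45.0% in MV411, 55.6% in A375, 74.2% in HCT116 and 75.01% in DU4475. RD values lay below all those of DU4475 and of HCT116, with mean differences of −32.3 and −31.5 points and an exact permutation p of 0.1 for each and 0.3 after Benjamini-Hochberg adjustment over the 6 lines. RD overlapped 92-1, 22RV1, A375 and MV411. With all lists limited to −log10 p of at least 5, the RD value was 24.1% and overlapped all 6 lines. The differences were then −25.7 points to DU4475, −34.1 points to HCT116 and −17.6 points to MV411, with adjusted exact p of 0.6 for each. The loss of line-only segments exceeded that of shared ones by 5.84 points in RD. Outside gene ends the losses were nearly equal in points, with differences of −29.3 for RD-only and −28.7 for shared segments. Without any 1 DMSO sample the order turned, with −4.47 to −4.92 points for RD-only and −10.4 to −11.8 points for shared segments. Over the 7 lines the mean excess was 8.32 points (SD 10.2, higher in 5 of 7 lines), with an exact two-sided sign-flip p of 0.125. When the choosing replicates had −log10 p of at least 5 the excess was 28.7 points in RD, and the mean 21.3 points with an exact p of 0.0156, the smallest 7 lines can give. As a percent of DMSO recovery, with all segments counted, the mean excess was 24.9, with the same exact p. This result therefore depends on both the strength of the segments counted and the scale of the loss. It also counts gene ends, where shared RD segments at 10 or more changed by −1.08 points only. Outside gene ends, RD-only and shared segments of RD changed by −52.1 and −40.5 points from 5 to 10. At 10 or more they changed by −30.2 and −13.1 points. The part of gene ends in the excess over the 7 lines was not tested.

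**Figure D5:**
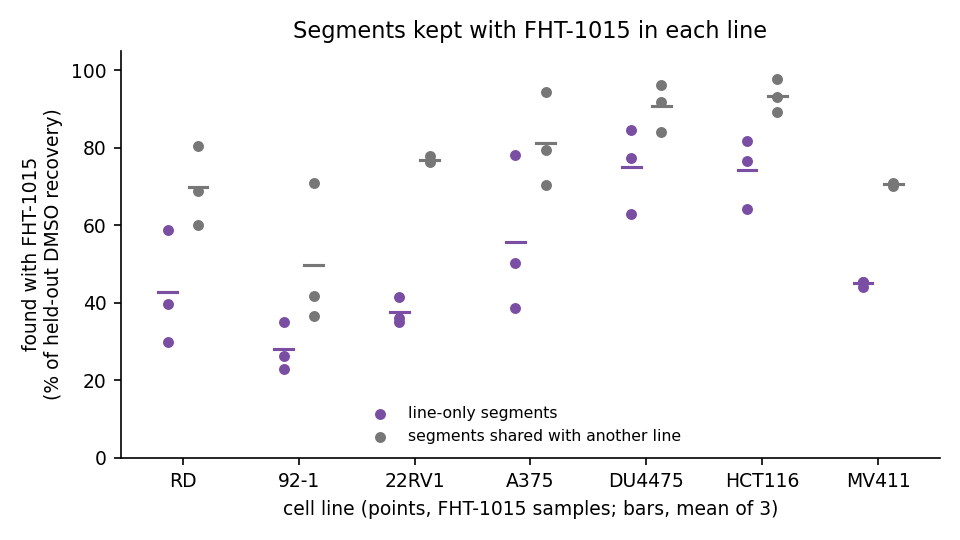
Recovery with FHT-1015 as a percent of held-out DMSO recovery in each of the 7 lines, for line-only segments (purple) and segments shared with another line (grey), with each FHT-1015 sample as a point and the mean of 3 as a bar. RD-only segments average 42.7% and shared RD segments 69.8%, and line-only segments lie below shared ones in the mean of every line.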

How the data were processed

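ATAC-seq was made from 42 samples by the original protocol with bead size selection on both sides, per the labels' protocols. The submitters' processing notes name Bowtie2, Picard, MACS2, limma and HOMER and the build hg38, while their versions and parameters, and any shift of reads for the transposase, were not given in the sources used here. For each sample the authors deposited its own list of peaks, so replicates were not pooled. In these lists the fold is a ratio of the pileup at the summit to the background, as deposited. Each peak also has a p-value and a q-value, deposited as −log10. The authors' score per peak, deposited in a further column, was not used. All of these are values of the authors' peak caller, used to describe or filter peaks within a list, and differences between lists are not measured changes in accessibility. Lists started at −log10 p of 2.00 to 2.04, so weak peaks are included and many recur poorly. The peaks of 92-1, 22RV1, HCT116 and MV411 carry another kind of name and tend to be narrower, so lines were compared through ratios within each line.

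Samples were grouped by cell line and treatment as labelled. Intervals were merged within a list (Python 3.11.15, numpy 2.4.6, pandas 2.3.3), and segments were the bases common to the 3 DMSO lists of a line. A segment was found in a list when at least 1 base overlapped. Whole-number pileups and backgrounds were solved from the deposited fold and p as a Poisson tail, within 0.01 of −log10 p, for every RD-only segment and list. The lists hold no total of reads. The stand-in for depth, the commonest background of a list, ranged from 0.0341 to 2.79 reads over the 42 lists. Between 0.0383% and 0.0606% of intervals were identical in pairs of RD replicates, so no list was a copy. Rule and recovery were tested on simulated lists.

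The comparison of DMSO with FHT-1015 used held-out replicates and exact permutation tests over samples. Genes, start sites and promoters are RefSeq GRCh38.p14, the same build as the deposited coordinates, which are written from 1. Gene names follow these rules: genes of the muscle lists with at least 3 segments within 100 kb, the 10 genes nearest to most segments (ties in alphabetical order, 1 gene is not reported here), the 8 strongest segments, the 5 clusters with most segments (ties by the shortest span), and the 5 strongest segments found in all and in none of the RD FHT-1015 lists. Genes tied with the last of the 10, the cluster at NEK7, other members of the muscle lists, genes with an RD-only segment at the promoter, and MYOD1, MYF5 and CDH15 were added, and the tied genes, that cluster and the promoter genes were chosen after their values were seen. The segments, gene lists, motifs and tests were chosen with earlier results of these data known. Motifs in segments outside promoter windows were not analysed here. The alternatives were other widths, overlaps, thresholds, lists of equal length, samples or lines left out, and the replicate block.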

Additional observations from a re-analysis of the deposited data

How the results depend on the processing

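The number of RD-only segments depends on the rule. It was 2817 as reported, 1424 at a smallest width of 200 bp, 1787 with RD peaks of q below 0.05, 346 with RD peaks of −log10 q of at least 5, and 8924 when only A375 and DU4475 served as other lines. Leaving out an RD DMSO replicate gave 5157 to 5631. The loss of RD-only segments with FHT-1015 kept its direction under all alternatives run. It was −48.7 points with q below 0.05 and −65.4 points with −log10 q of at least 5, where held-out DMSO recovery of 77.6% met 12.2% with FHT-1015. Over the runs without 1 sample it ranged from −33.6 to −4.47 points for RD-only and from −27.8 to −10.4 for shared segments. The smallest values came from leaving out a DMSO sample, because segments then rest on a single list. Without DMSO replicate 1, for example, DMSO recovery was 13.3% and FHT-1015 recovery 8.73%.

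With the replicate block, which subtracts samples of the same number, the differences were −29.5 points for RD-only and −23.6 for shared segments, each with an exact sign-flip p of 0.25. Same-numbered samples did not deviate together (correlations of −0.0171, −0.0470 and −0.0760), so the numbers are not taken to pair the samples. The excess loss of line-only over shared segments, 8.32 points over the 7 lines, rose to 21.3 points for choosing replicates at −log10 p of at least 5. Expressed as a percent of DMSO recovery it was 24.9, and 27.8 for those stronger segments. Each of these 3 had an exact sign-flip p of 0.0156, and the last 2 were added after the data had been seen. All of them counted segments at gene ends too. The share of RD-only segments found in all 3 treated samples, at gene ends minus elsewhere, was 3.07 points with gene ends drawn at 1 kb and −0.296 points at 2.5 kb, and the cause was not tested. Within 20 kb in place of 100 kb, 9 of 25 myogenic regulators, 9 of 27 sarcomere genes and 8 of 14 surface genes had a segment, against 9.91% of all genes. For genes of the neuromuscular junction and calcium release it was 2 of 13 (15.4%).

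Depth limits single segments: at a median of 8 to 10 reads, presence in 1 list is a weak statement. Motif windows around summits and the split of segments by motif were not run, since genome sequence was not used here.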

Other observations

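A few RD-only segments were listed more strongly in a treated sample than in any untreated one. The segment beside KDM4B, a histone demethylase gene, at chr19:4968164-4968296, had −log10 p of 4.68, 3.23 and 4.53 in DMSO and 7.15, 3.67 and 85.9 with FHT-1015. In treated replicate 3 no summit lay in the segment, and the value belongs to a wide interval that runs on towards the neighbouring promoter. At IRS1, an adaptor of insulin signalling, a segment of 205 bp at chr2:226759349-226759553 had 18.3, 26.1 and 21.0 in DMSO and 14.8, 11.1 and 30.5 with FHT-1015, so the groups overlapped. The segment inside TNIK, at chr3:171392954-171393593, had 24.1, 18.4 and 18.1 in DMSO and 14.5, 9.18 and 27.3 with FHT-1015. All 3 were chosen after their values were seen, for the highest values in treated replicate 3.

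Chromosome 18 had the highest share of RD-only segments among its RD segments, 9.87%, and chromosome 19 the lowest, 2.86%. Other RD-only segments listed in all 3 treated samples of another line lay near AUTS2 in DU4475, FBN2 in MV411 and DPYSL5 in 92-1.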
